A study of Danio rerio with 6 samples.

Results

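Enzymes that break down amino acids and move 1-carbon units were examined in livers of zebrafish larvae with mosaic knockout of the 2 Keap1 paralogs. The set was a list of 60 zebrafish genes chosen by gene name rather than by a threshold on measured values, but with earlier results of these data known. Of these, 48 had a row in the count table, out of 6502 rows with a gene ID. All 48 passed the filter on low counts. The other 12 (*hgd*, *amt*, *sds*, *cbsa*, *bckdha*, *ass1*, *asl*, *cps1*, *otc*, *got2a*, *glud1a* and *kmo*) were not analysed here. Levels are given as CPM, the counts of a gene relative to its library's total, scaled by TMM factors that correct for differences in composition between libraries. Values called unscaled use the total alone. Each gene in the table has 0.512 CPM or more in 3 libraries, so a gene can be missing because its level was low.

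RNA was taken from dissected livers at 7 days post fertilization (dpf), in pools of 15 livers, and sequenced from the 3′ ends of polyadenylated transcripts. Wild-type (WT) larvae were compared with cr*keap1a/b* larvae, with 3 pools each. The latter are crispants, injected at the one-cell stage with Cas9 and guides against *keap1a* and *keap1b*. Knockout in such larvae is mosaic, so edited and unedited cells can lie side by side in one liver. Controls were clutch siblings per the study's methods, and the labels do not say what, if anything, the controls were injected with. The comparison asks how loss of Keap1, the protein that holds the transcription factor Nrf2 in check, changes gene expression in the liver.

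The vertebrate liver is the main site of amino acid catabolism. Hepatocytes remove the amino group by transamination, oxidize the carbon skeletons for energy or glucose, and dispose of the nitrogen as glutamine, ammonia or urea. The methionine cycle makes S-adenosylmethionine, the methyl donor of the cell, and passes homocysteine either back to methionine or on to cysteine, a precursor of glutathione. Serine, glycine, histidine and choline breakdown feed 1-carbon units into the folate pool.

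Totals ranged from 10846582 to 16666610 counts per library, which is more than the sequencing depth stated in the study's methods, and the sources used here do not explain the difference. Rows with a gene ID held 9491003 to 15030262 counts per library, and on that total, after scaling, 3 counts corresponded to 0.175 to 0.367 CPM. The replicate 3 libraries of both groups stood apart: rows at a count of 0 made up 53.2% of WT replicate 3 and 47.6% of cr*keap1a/b* replicate 3. The share was 2.83% to 13.1% among the remaining 4. These are also the 2 samples whose descriptions carry the letter b, the meaning of which the labels do not give. Of the 48 enzymes, WT replicate 3 had 7 at a count of 0 and cr*keap1a/b* replicate 3 had 4, with 0 or 1 such enzymes in each other library. Calls are therefore given with all 6 libraries and again with the 4 letter a libraries alone. The targeted genes gave no check of the labels. Their counts were low, and *keap1a* had a count of 0 in libraries of both groups. Counts from the 3′ end can also come from edited transcripts, which was not tested. *keap1a* had 375, 0 and 379 counts in the WT pools, against 291, 307 and 0 in the cr*keap1a/b* pools. *keap1b* had 314, 261 and 10 counts in the WT pools, against 489, 309 and 0 in the cr*keap1a/b* pools.

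In cr*keap1a/b* livers, 6 of the 48 enzymes were lower and 0 were higher at an adjusted p-value under 0.05 (limma-voom). The 6 were *hpda* of tyrosine breakdown, the alanine-glyoxylate aminotransferases *agxta* and *agxtb*, *ahcy* of the methionine cycle, *gamt* of creatine synthesis and *arg2*, the mitochondrial arginase. That is 12.5% of the enzymes, against 0.595% of all 6386 tested genes called lower and 0.595% called higher. The count of enzymes called higher was also 0 in edgeR, 1 in DESeq2 and 6 at an unadjusted p-value under 0.05. Every cr*keap1a/b* library lay below every WT library in TMM-scaled CPM for 12 enzymes (25%), against 5% of all tested genes. Every cr*keap1a/b* library lay above every WT library for 2 enzymes (4.17%), against 8.39% of all tested genes. The median log2 fold change was −0.26 over the enzymes, of which 30 were below 0 and 18 above, and 0.36 over all tested genes.

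The call depends on the libraries and the test. With the letter a libraries alone, 11 enzymes were called lower and 1 was called higher, against 2.19% and 2.33% of all tested genes, and the median log2 fold change was −0.43 against 0.21. *agxtb* was the one enzyme called by edgeR's quasi-likelihood test, in which 5 enzymes of the 6 were not called. None of the 6 was called without WT replicate 1 or without cr*keap1a/b* replicate 2. In each of those fits a single gene of the whole table had an unadjusted p-value under 0.05. Without WT replicate 2 or without cr*keap1a/b* replicate 1, *hpda* was the only enzyme called. When the model also held the replicate, by title number or by description code, 0 enzymes were called. With the letter as a covariate, *agxta* and *agxtb* stayed called and *bhmt* was gained. The other 4 were then not called, at adjusted p-values of 0.0764 for *hpda*, 0.119 for *ahcy*, 0.193 for *gamt* and 0.159 for *arg2*.

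Fitted to the letter a libraries, the log2 fold changes of the 6 were −0.92 for *hpda*, −1.02 for *agxta*, −1.73 for *agxtb*, −0.88 for *ahcy*, −1.03 for *gamt* and −1.05 for *arg2*, and all 6 were called lower. Among the enzymes described next and not called there, the values included −0.48 for *pah*, 0.66 for *fah*, −0.84 for *shmt1* and −0.42 for *tdh*. They also included −0.67 for *aldh6a1*, −0.11 for *mccc2*, −0.66 for *tdo2b*, −0.13 for *ftcd* and −0.69 for *aldh1l1*. *tat* and *hpdb*, each with a count at or near 0 in these libraries, were at −5.96 and 4.95.

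The enzymes called were those with many counts. Above a mean of 500 CPM, a limit set after the data were seen, lay 15 of the enzymes and 256 of all tested genes. In that range, 6 enzymes (40%) were called lower, against 12.9% of all genes, and 8 (53.3%) had groups that did not overlap and were lower, against 19.5% of all genes. Below it, 0 of 33 enzymes were called by limma-voom and 0 by edgeR, and 1 was called higher by DESeq2. At an unadjusted p-value under 0.05 in limma-voom, 5 of the 33 were higher and 2 lower. Groups did not overlap for 4 of the 33 that were lower (12.1% against 4.39% of all genes) and 2 that were higher (6.06% against 8.24%). The background of 0.595% is thus not the share among genes of similar counts. The median log2 fold change also differed with level. Above 500 CPM it was −0.80 for the enzymes and −0.22 for all tested genes. Below that limit it was −0.003 and 0.43.

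**Figure D1:**
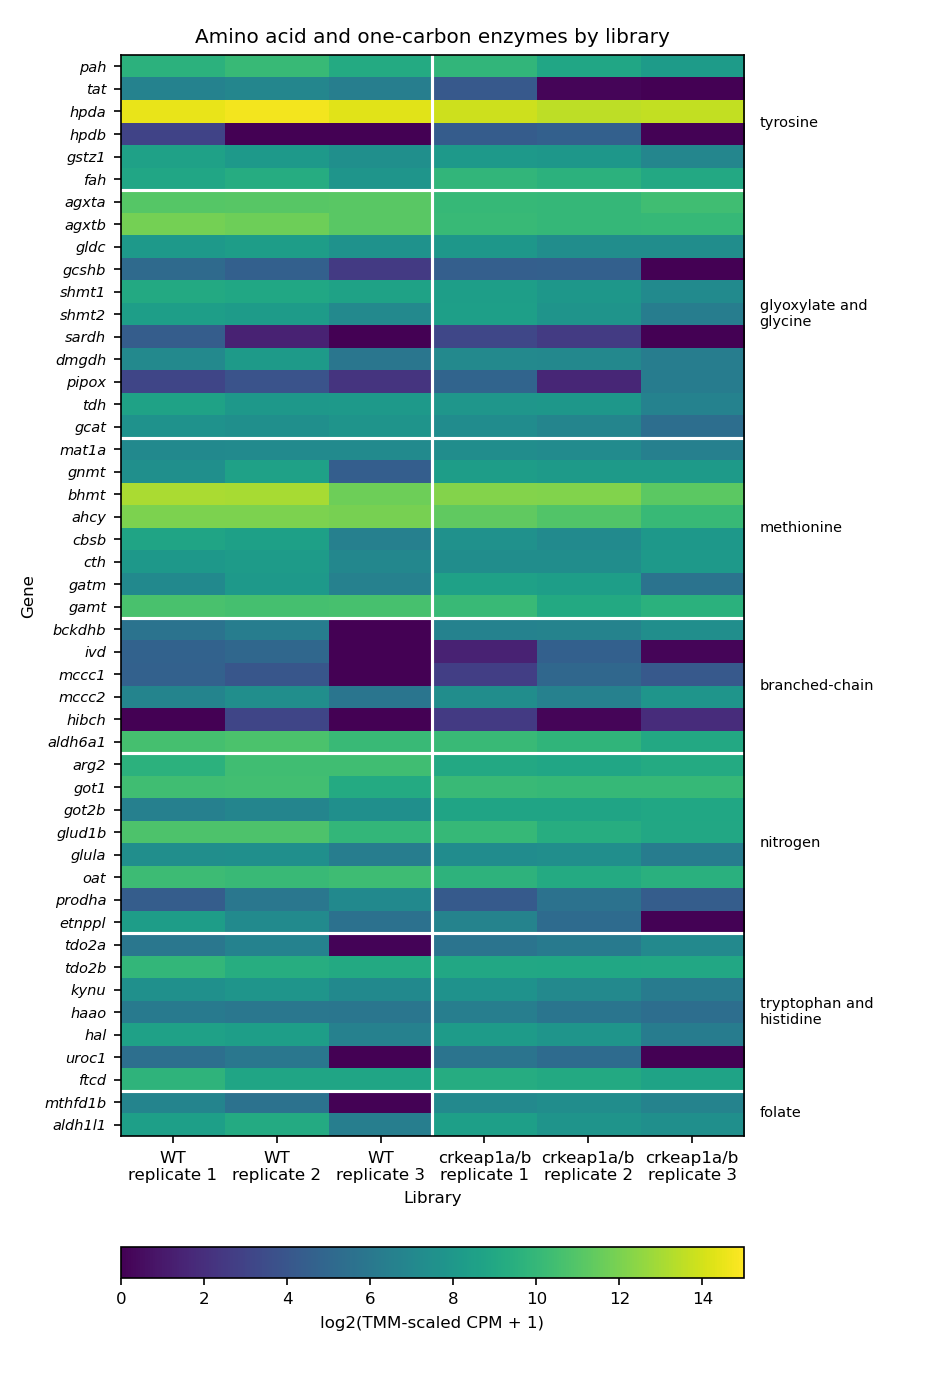
The 48 enzymes (rows) in the 3 WT and 3 crkeap1a/b libraries (columns), as log2(TMM-scaled CPM + 1), sorted by enzyme group. Dark cells mark values near 0, with 7 enzymes at a count of 0 in WT replicate 3 and 4 in crkeap1a/b replicate 3.

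**Figure D2:**
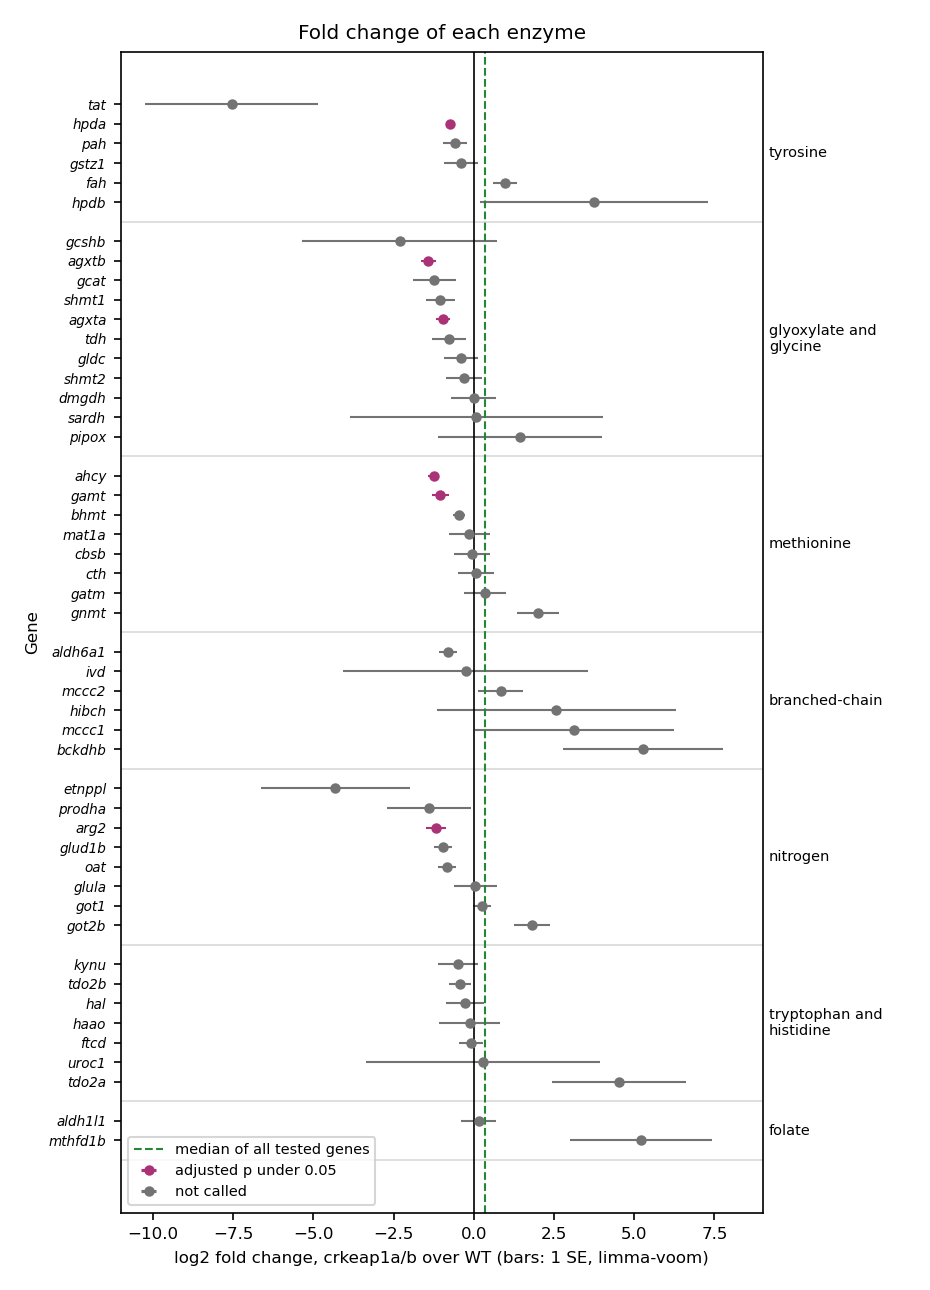
log2 fold change of crkeap1a/b over WT for each of the 48 enzymes, with bars of 1 standard error from limma-voom. The 6 enzymes at an adjusted p-value under 0.05 all lie below 0, and the dashed line marks the median of all tested genes at 0.36.

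In tyrosine breakdown, *hpda* was called lower by limma-voom, and *tat* was at or near a count of 0 in 2 of the 3 cr*keap1a/b* libraries. *hpda* encodes 4-hydroxyphenylpyruvate dioxygenase, which makes homogentisate. It had 219947, 221668 and 352269 counts in the WT pools, against 164520, 145496 and 189996 in the cr*keap1a/b* pools. The groups did not overlap in counts or in CPM, with 23569 ± 3336 CPM in the WT pools and 12997 ± 1627 CPM in the cr*keap1a/b* pools (SD, n = 3). In limma-voom, the difference for *hpda* was −0.76 ± 0.05 (SE) on the log2 scale, at an adjusted p-value of 4.09e-18. Voom gives genes with many counts a large weight, so this SE is not the spread between pools. Limma with a trend gave −0.86 ± 0.18 (SE) for *hpda*. The adjusted p-value was 0.0153 in limma with a trend, 0.0864 in DESeq2 and 0.227 in edgeR, and 0.0764 in limma-voom with the letter as a covariate.

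*tat*, tyrosine aminotransferase, carries out the first step of tyrosine breakdown. It had 967, 961 and 1454 counts in the WT pools, against 195, 2 and 0 in the cr*keap1a/b* pools. The groups did not overlap, with 101 ± 16.5 CPM in the WT pools and 5.89 ± 10.1 CPM in the cr*keap1a/b* pools, a mean 94.2% lower. The cr*keap1a/b* libraries differed widely among themselves, and *tat* did not pass the test (adjusted p = 0.231 in limma-voom, 0.996 in edgeR). Its fitted log2 fold change of −7.55 rests on the counts of 2 and 0, with a prior count added, and is not a measured size. It was −5.69 without cr*keap1a/b* replicate 3, the library with the 0.

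*pah*, phenylalanine hydroxylase, feeds phenylalanine into the pathway. It had 7552, 8924 and 9825 counts in the WT pools, against 10358, 5898 and 4584 in the cr*keap1a/b* pools, and the groups overlapped (log2 fold change −0.59 ± 0.36, adjusted p = 0.741). *hpdb*, the paralog of *hpda*, had 69, 0 and 0 counts in the WT pools, against 214, 296 and 1 in the cr*keap1a/b* pools. With a count of 0 in 2 of the WT libraries, *hpdb* could not be compared beyond these values (adjusted p = 0.906). How reads that match both paralogs were assigned is not given in the sources used here.

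*fah*, fumarylacetoacetate hydrolase, carries out the last step. It was named after its values were seen. It had 4501, 5182 and 3849 counts in the WT pools, against 10259, 9872 and 7861 in the cr*keap1a/b* pools. The counts did not overlap, but in scaled CPM 1 WT library at 634 exceeded the lowest cr*keap1a/b* library at 523. The log2 fold change of 0.97 ± 0.39 did not pass the test (adjusted p = 0.342). *gstz1*, the maleylacetoacetate isomerase of the step before, also named after its values were seen, overlapped (−0.40 ± 0.53).

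Among glyoxylate and glycine enzymes, both *agxt* paralogs were called lower by limma-voom. *shmt1*, *tdh* and *gcat* lay lower in every cr*keap1a/b* library without passing the test. AGXT transfers an amino group from alanine to glyoxylate, giving glycine, and its loss in humans leads to oxalate build-up. *agxtb* had 36140, 27392 and 39661 counts in the WT pools, against 12223, 12959 and 16062 in the cr*keap1a/b* pools. Its level was 3150 ± 757 CPM in the WT pools and 1066 ± 33.3 CPM in the cr*keap1a/b* pools (SD, n = 3), a mean 66.2% lower. A log2 fold change of −1.42 ± 0.22 came with an adjusted p-value of 5.51e-06 in limma-voom, 2.54e-04 in DESeq2 and 0.0345 in edgeR.

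*agxta* had 19897, 17813 and 39746 counts in the WT pools, against 11980, 12573 and 20030 in the cr*keap1a/b* pools. The groups overlapped in counts and in unscaled CPM. After scaling they did not, with 2194 ± 117 CPM in the WT pools and 1136 ± 175 CPM in the cr*keap1a/b* pools. For *agxta*, the log2 fold change was −0.96 ± 0.22, with an adjusted p-value of 0.0056 in limma-voom and 0.437 in edgeR. Since *agxta* and *agxtb* are paralogs, any reads shared between them would move counts from one to the other.

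*shmt1*, the cytosolic serine hydroxymethyltransferase, makes glycine from serine and passes a 1-carbon unit to folate. It had 5363, 3919 and 6815 counts in the WT pools, against 3765, 3096 and 2191 in the cr*keap1a/b* pools. The groups did not overlap (480 ± 82.1 against 243 ± 96.1 CPM), and the log2 fold change of −1.05 ± 0.46 did not pass the test (adjusted p = 0.496).

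The enzymes *tdh* and *gcat* act in sequence on threonine, as a dehydrogenase and then an acetyltransferase that releases glycine. *tdh* had 3817, 2090 and 4486 counts in the WT pools, against 2592, 3050 and 1524 in the cr*keap1a/b* pools. *gcat* had 1878, 1428 and 3764 counts in the WT pools, against 1766, 1440 and 634 in the cr*keap1a/b* pools. After scaling neither overlapped, at 306 ± 81.4 against 192 ± 78.8 CPM for *tdh* and 197 ± 22.3 against 105 ± 58.8 CPM for *gcat*. *tdh* overlapped in unscaled CPM. For *gcat*, the lowest cr*keap1a/b* library was replicate 3 at 42.2 CPM, and the log2 fold change of −1.23 ± 0.67 became −0.45 in the letter a libraries. Neither was called (adjusted p = 0.770 for *tdh* and 0.699 for *gcat*).

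The other tested enzymes of this group overlapped. They were the mitochondrial *shmt2*, the glycine cleavage subunits *gldc* and *gcshb*, the dehydrogenases *sardh* and *dmgdh* that strip methyl groups from sarcosine and dimethylglycine, and *pipox*, a peroxisomal sarcosine and pipecolate oxidase. The summed level of the 11 tested enzymes was 5909 to 7826 CPM in the WT pools and 3095 to 3691 CPM in the cr*keap1a/b* pools, and these ranges did not overlap. Most of this sum is *agxta* and *agxtb*, so it does not show a fall across the group.

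In the methionine cycle and creatine synthesis, *ahcy* and *gamt* were called lower by limma-voom. *ahcy* encodes adenosylhomocysteinase, which splits the S-adenosylhomocysteine left by methyl transfer into homocysteine and adenosine. It had 39781, 34156 and 67653 counts in the WT pools, against 28451, 24876 and 16760 in the cr*keap1a/b* pools. The WT libraries were close together at 4097 ± 133 CPM, and the cr*keap1a/b* libraries were spread over 1883 ± 724 CPM. This gave a log2 fold change of −1.25 ± 0.18, with an adjusted p-value of 5.46e-07 in limma-voom, 0.0234 in DESeq2 and 0.258 in edgeR. In the letter a libraries it was −0.88.

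*gamt*, guanidinoacetate methyltransferase, makes creatine with S-adenosylmethionine as the methyl donor. It had 16116, 12606 and 27076 counts in the WT pools, against 12837, 6810 and 11656 in the cr*keap1a/b* pools. The scaled groups did not overlap, at 1603 ± 75.1 against 823 ± 308 CPM. *gamt* had a log2 fold change of −1.05 ± 0.27, with an adjusted p-value of 0.0229 in limma-voom and 0.716 in edgeR.

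*bhmt*, which remethylates homocysteine with betaine, had 82300, 69113 and 56805 counts in the WT pools, against 53702, 58399 and 36250 in the cr*keap1a/b* pools. The groups overlapped because WT replicate 3, at 3311 CPM, lay below 2 of the cr*keap1a/b* libraries. *bhmt* had a log2 fold change of −0.47 ± 0.19 with all libraries (adjusted p = 0.363) and −0.83 in the letter a libraries alone, where it was called (adjusted p = 7.28e-05).

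Further enzymes of this group had other values without the letter b libraries and were named after their values were seen. *cbsb*, cystathionine beta-synthase, had a log2 fold change of −0.06 ± 0.57 with all libraries and −1.26 in the letter a libraries, where it was called (adjusted p = 0.00283). *gnmt*, glycine N-methyltransferase, had 1655, 3085 and 361 counts in the WT pools, against 3614, 3674 and 4343 in the cr*keap1a/b* pools. Its log2 fold change of 1.99 ± 0.66 (adjusted p = 0.154) was 0.30 in the letter a libraries and 0.25 without WT replicate 3 alone. Without cr*keap1a/b* replicate 3 alone, *gnmt* was called higher (1.87, adjusted p = 0.0160). *mat1a*, *cth* and *gatm* overlapped and were not called with all libraries or with letter a alone. *cth*, cystathionine gamma-lyase, had a log2 fold change of 0.06 with all libraries and −0.74 in the letter a libraries. *gatm*, which makes the guanidinoacetate that *gamt* methylates, was at 0.34 with all libraries, 0.93 in the letter a libraries and 1.36 without cr*keap1a/b* replicate 3. Its sign changed without WT replicate 3 (−0.09), without cr*keap1a/b* replicate 1 (−0.06) and without cr*keap1a/b* replicate 2 (−0.06).

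**Figure D3:**
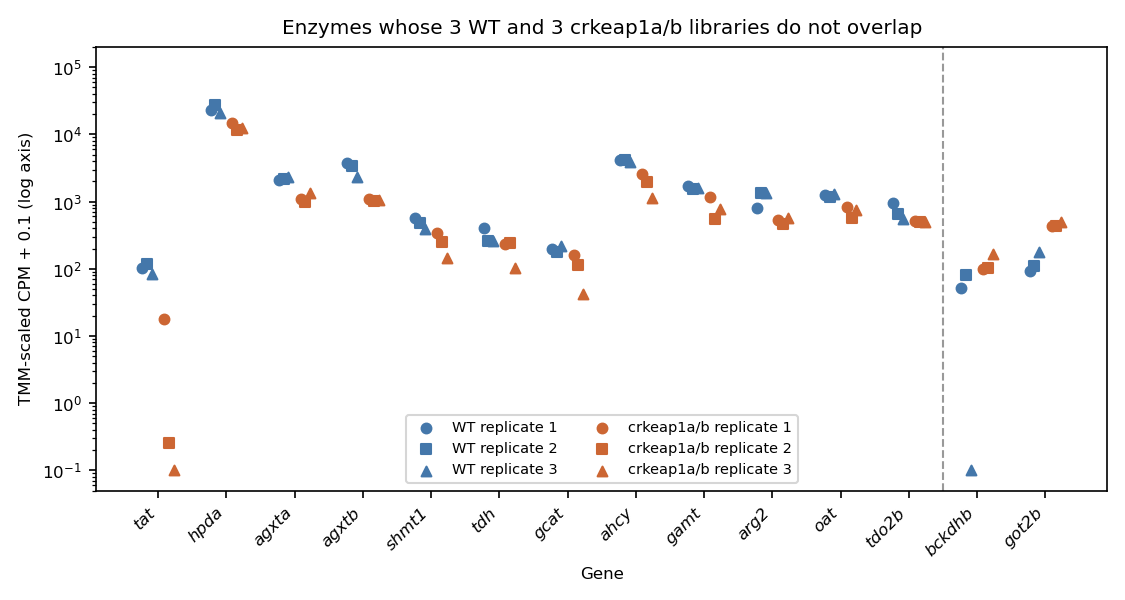
TMM-scaled CPM plus 0.1 on a log axis for the 14 enzymes whose 3 WT and 3 crkeap1a/b libraries did not overlap, with 1 point for each library. In 12 enzymes (left of the dashed line) the crkeap1a/b libraries lie below WT, and in bckdhb and got2b they lie above, with bckdhb at a count of 0 in WT replicate 3.

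Of the enzymes that handle nitrogen, *arg2* was called lower by limma-voom. *oat* lay lower and *got2b* higher in every cr*keap1a/b* library without passing the test. *arg2*, which splits arginine to ornithine and urea, had 7638, 11134 and 23197 counts in the WT pools, against 5899, 5788 and 8493 in the cr*keap1a/b* pools. The groups overlapped in counts and in unscaled CPM and not after scaling (1172 ± 322 against 518 ± 53.3 CPM). Its log2 fold change was −1.18 ± 0.32, with an adjusted p-value of 0.0427 in limma-voom, 0.104 in DESeq2 and 0.416 in edgeR. Without the filter on low counts, the adjusted p-value of *arg2* in limma-voom was 0.0631. *oat*, ornithine aminotransferase, acts on the ornithine that arginase makes. It had 12102, 9474 and 22235 counts in the WT pools, against 9138, 7197 and 11082 in the cr*keap1a/b* pools, and these counts overlapped. In CPM the groups did not overlap, scaled or unscaled (1241 ± 71.7 against 710 ± 126 CPM scaled). Its log2 fold change of −0.84 ± 0.28 was not called with all libraries (adjusted p = 0.170) and was called in the letter a libraries (−0.81, adjusted p = 0.0327).

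*glud1b*, glutamate dehydrogenase, releases ammonia from glutamate. It had 17443, 14383 and 16759 counts in the WT pools, against 11643, 8063 and 7758 in the cr*keap1a/b* pools. The counts did not overlap, but after scaling WT replicate 3 (977 CPM) lay below cr*keap1a/b* replicate 1 (1045 CPM). Its log2 fold change was −0.96 ± 0.29 (adjusted p = 0.0961), and −1.12 in the letter a libraries (adjusted p = 1.85e-04).

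Among the aspartate aminotransferases, the groups were separate for *got2b* and not for *got1*. *got2b*, a mitochondrial form, had 883, 909 and 3013 counts in the WT pools, against 4847, 5521 and 7398 in the cr*keap1a/b* pools. The groups were far apart, at 126 ± 43.6 CPM in the WT pools and 456 ± 31.9 CPM in the cr*keap1a/b* pools, a ratio of 3.60. The log2 fold change of 1.80 ± 0.56 had an adjusted p-value of 0.108 in limma-voom, 0.0248 in DESeq2 and 0.211 in edgeR. In the letter a libraries it was 2.13 (adjusted p = 4.81e-07), the 1 enzyme called higher there. *got1*, the cytosolic form, had 12852, 11573 and 9969 counts in the WT pools, against 12595, 13490 and 15944 in the cr*keap1a/b* pools, and overlapped after scaling (log2 fold change 0.27 ± 0.28). Its log2 fold change was −0.31 in the letter a libraries. No test of the difference between *got1* and *got2b* was run.

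*glula* (glutamine synthetase) and *prodha* (proline dehydrogenase) overlapped. *etnppl*, ethanolamine-phosphate phospho-lyase, was named after its values were seen, with 329, 143 and 48.0 CPM in WT and 102, 36.3 and 0.067 CPM in cr*keap1a/b* livers. It was called lower in the letter a libraries (log2 fold change −1.87, adjusted p = 2.26e-04) and not with all libraries (adjusted p = 0.689).

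The branched-chain enzymes gave 0 calls by limma-voom with all libraries or with letter a alone (0 by edgeR and DESeq2, and 1 in each direction at an unadjusted p-value under 0.05). *aldh6a1*, methylmalonate semialdehyde dehydrogenase of valine breakdown, had 14708, 14249 and 19775 counts in the WT pools, against 12847, 11287 and 7971 in the cr*keap1a/b* pools. The counts did not overlap, and the scaled values touched, with 1153 CPM as the lowest in WT and the highest in cr*keap1a/b* livers (log2 fold change −0.80 ± 0.27, adjusted p = 0.193). *bckdhb*, a subunit of the dehydrogenase that commits branched-chain keto acids to oxidation, had 488, 663 and 0 counts in the WT pools, against 1092, 1280 and 2495 in the cr*keap1a/b* pools. The groups did not overlap, but its fitted log2 fold change was 5.27 with all libraries and 0.67 in the letter a libraries (adjusted p = 0.594 and 0.582). *mccc2*, a subunit of methylcrotonyl-CoA carboxylase of leucine breakdown, had 1037, 1379 and 944 counts in the WT pools, against 1790, 1201 and 3367 in the cr*keap1a/b* pools, and overlapped. Its log2 fold change was 0.83 ± 0.70 with all libraries and −0.11 in the letter a libraries.

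The remaining branched-chain enzymes *ivd*, *mccc1* and *hibch* each had a count of 0 in at least 1 library and at most 31.7 CPM in any. No difference was detectable in these 3 at such counts. The median log2 fold change of the branched-chain group, 1.70 with all libraries, was −0.26 in the letter a libraries.

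Tryptophan, histidine and folate enzymes also gave 0 calls by limma-voom with all libraries or with letter a alone (0 by edgeR and DESeq2, and 2, both higher, at an unadjusted p-value under 0.05). Tryptophan 2,3-dioxygenase, encoded by *tdo2a* and *tdo2b*, opens the kynurenine pathway. *tdo2b* had 9142, 5365 and 9528 counts in the WT pools, against 5658, 6182 and 7543 in the cr*keap1a/b* pools. After scaling, the 3 cr*keap1a/b* libraries lay at 492 to 508 CPM and the WT libraries at 555 to 957 CPM, which did not overlap, although the unscaled values did. The log2 fold change of −0.43 ± 0.35 did not pass the test (adjusted p = 0.831).

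*tdo2a* had 578, 800 and 2 counts in the WT pools, against 604, 903 and 2007 in the cr*keap1a/b* pools. The letter b libraries gave the extremes of both groups, and the log2 fold change was 4.53 with them and −0.26 without. *ftcd*, which passes the 1-carbon unit of histidine to folate, had 8381, 3707 and 7698 counts in the WT pools, against 6831, 6815 and 6244 in the cr*keap1a/b* pools, with a log2 fold change of −0.10 ± 0.37.

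*aldh1l1*, which oxidizes 10-formyltetrahydrofolate, had 3410, 4701 and 1450 counts in the WT pools, against 4000, 2672 and 2612 in the cr*keap1a/b* pools, and overlapped. Its log2 fold change was 0.15 ± 0.55 with all libraries and −0.69 in the letter a libraries. *mthfd1b*, which interconverts 1-carbon folates, had 1037, 411 and 1 counts in the WT pools, against 1470, 2049 and 1535 in the cr*keap1a/b* pools. Its log2 fold change of 5.21 with all libraries (adjusted p = 0.436) was 0.98 in the letter a libraries (adjusted p = 0.229), and the groups overlapped after scaling.

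The 19 enzymes outside the naming rules and not given with their counts, *gstz1*, *mat1a*, *cth* and *gatm* among them, had 0 calls by limma-voom (0 by edgeR and DESeq2, and 0 at an unadjusted p-value under 0.05) and overlapped between groups. Their log2 fold changes ran from −2.31 to 3.14, with 8 above 0 and 11 below. In the 13 of them without a count of 0 in any library, the range was −1.40 to 1.45, and the lowest adjusted p-value among the 19 was 0.892. In the letter a libraries 0 of the 19 were called by limma-voom, and their median was −0.32, against −0.13 with all libraries.

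Summed over each group, tyrosine enzymes had 21595 to 29268 CPM in the WT pools and 13097 to 16923 CPM in the cr*keap1a/b* pools, and nitrogen enzymes had 4648 to 6191 and 3444 to 4241 CPM. Neither overlapped, as for the glyoxylate and glycine enzymes. *hpda* carries most of the tyrosine sum, and *agxta* and *agxtb* most of the glyoxylate and glycine sum. The nitrogen sum includes the called *arg2*. These sums are therefore not separate from the calls. Sums of the methionine enzymes (9304 to 15661 CPM in the WT pools and 5255 to 9748 CPM in the cr*keap1a/b* pools), the branched-chain enzymes (1208 to 2049 and 941 to 1425 CPM) and the tryptophan and histidine enzymes (1296 to 2568 and 1244 to 1809 CPM) overlapped. The sum of all 48 enzymes was 44044 to 63085 CPM in the WT pools and 27872 to 38328 CPM in the cr*keap1a/b* pools. Without *hpda* it was 23509 to 35944 and 15227 to 23557 CPM, which overlapped. In the letter a libraries alone, the cr*keap1a/b* sums lay below the WT sums for each of these groups, and overlapped for the 2 folate enzymes.

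**Figure D4:**
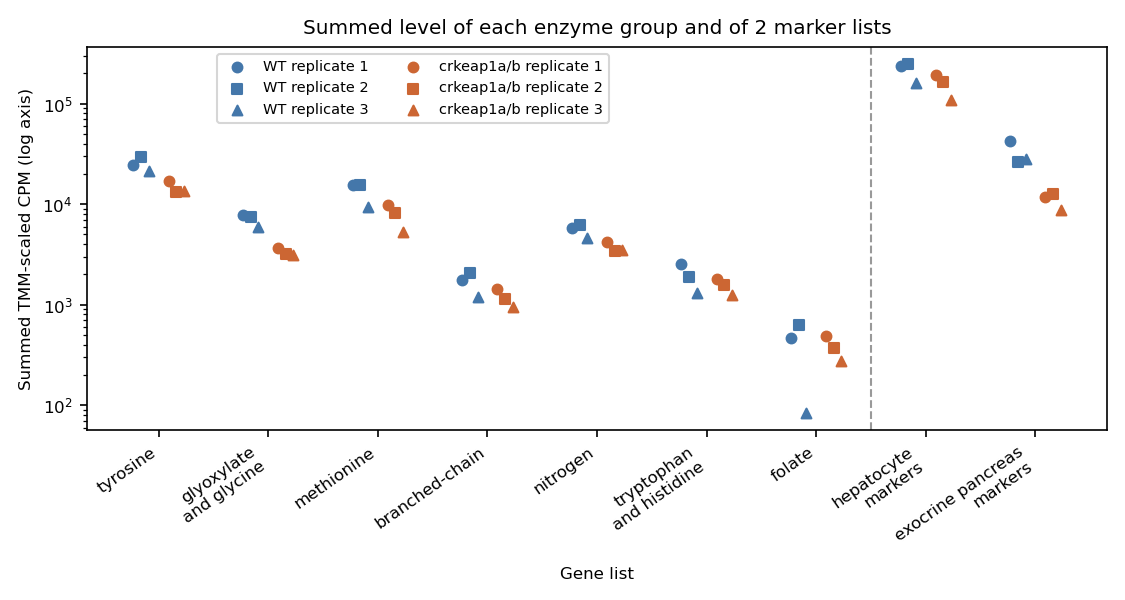
Summed TMM-scaled CPM of each enzyme group and of 2 marker lists on a log axis, with 1 point for each library. The crkeap1a/b sums lie below all WT sums for the tyrosine, glyoxylate and glycine, and nitrogen enzymes and for exocrine pancreas markers, whereas hepatocyte marker sums overlap (159149 to 245837 CPM in WT, 109778 to 192587 CPM in crkeap1a/b).

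In bulk tissue, fewer cells of a type and less RNA per cell cannot be told apart. By microscopy of larvae, the paper found no change in the volume of the liver or the number of hepatocytes in the crispants. It did report an altered liver shape, widened sinusoids and larger hepatocyte nuclei. The number of hepatocytes in the sequenced pools was not tested. The livers expressed hepatocyte genes, with 19 of 20 listed markers in the table. Their summed level was 159149 to 245837 CPM in the WT pools and 109778 to 192587 CPM in the cr*keap1a/b* pools, which overlapped. Their median log2 fold change was −0.28, beside −0.26 for the enzymes. In limma-voom 2 of the 19 were called lower (10.5%). The share was 0.595% of all genes and 12.9% of all genes above a mean of 500 CPM. The lists differ in level, with a median of 1898 CPM for the markers and 231 CPM for the enzymes. For the 15 enzymes above a mean of 500 CPM the median log2 fold change was −0.80, and for the 33 below it −0.003. In the letter a libraries alone the hepatocyte sums did not overlap, at 236055 and 245837 CPM in WT against 192587 and 164032 CPM. There the hepatocyte median was −0.42, next to −0.43 for the enzymes. Called lower there were 6 of the 19 markers and 11 of the 48 enzymes, against 2.19% of all genes. Of 22 listed exocrine pancreas genes, 15 were in the table and the other 7 had no row. The 15 summed to 26534 to 42078 CPM in the WT pools and 8817 to 12675 CPM in the cr*keap1a/b* pools. Of the 15, 9 were called lower by limma-voom (60%, against 0.595% of all genes), or 11 in the letter a libraries (against 2.19%).

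The pancreas sum was thus lower in the same libraries as the called enzymes, and its part in their values was not tested. Sums of muscle genes (11 of 15 in the table) were also lower without overlap, at 518 to 2701 against 238 to 445 CPM. So were sums of biliary genes (5 of 9), at 1250 to 1681 against 757 to 1090 CPM. Most of the biliary sum was *anxa4*, at 1116 to 1535 against 692 to 979 CPM. Taken singly, 1 of 11 muscle genes (9.09%) and 1 of 5 biliary genes (20%) were lower without overlap, against 5% of all genes. None was called by limma-voom with all libraries. With letter a alone, 6 muscle genes and 0 biliary genes were called lower, against 2.19% of all genes. Macrophage and neutrophil genes (3 of 15) were higher without overlap in their sum, at 0.0583 to 15.4 against 65.2 to 175 CPM. However, *marco* and *ctss2.1* had a count of 0 in 2 WT libraries each. Their rows reached the limit of 0.512 CPM in 3 libraries only because of the cr*keap1a/b* libraries. A higher sum was thus built in and is not a result about these cells. *ctss2.1* made up most of the sum in cr*keap1a/b* replicate 3 (153 CPM), and 0 of the 3 genes were called by limma-voom. Erythrocyte genes (8 of 12) summed to 532 to 666 CPM in the WT pools and 677 to 2342 CPM in the cr*keap1a/b* pools, again without overlap. Intestinal genes (10 of 15) overlapped, at 2789 to 4802 against 2469 to 3487 CPM. Endothelial and kidney tubule genes had 3 of 10 each in the table, and their sums overlapped. The part of these cell types in the enzymes' values was not tested either.

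Other genes of the same pathways, from a list of 106, were compared as company for the enzymes. Of these, 60 were in the table. By limma-voom 1 was called higher and 0 were called lower, against 0.595% of all genes in each direction. By edgeR and DESeq2 0 were called lower, and 2 were lower at an unadjusted p-value under 0.05 in limma-voom. The median log2 fold change was 0.55 against 0.36 over all genes. With letter a alone, 5 were called higher and 1 lower, against 2.33% and 2.19% of all genes. The median there was 0.05 against 0.21 over all genes. Groups did not overlap for 6 genes that were higher (10%, against 8.39% of all genes) and 5 that were lower (8.33%, against 5%). The gene called was *alas1*, which joins glycine to succinyl-CoA in the first step of heme synthesis. It had 2844, 2275 and 4484 counts in the WT pools, against 23694, 29884 and 31377 in the cr*keap1a/b* pools. The level was 279 ± 18.2 CPM in the WT pools and 2198 ± 157 CPM in the cr*keap1a/b* pools, with a log2 fold change of 2.99 ± 0.37 and an adjusted p-value of 8.28e-09 in limma-voom and 1.25e-04 in edgeR.

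The other companions described here are named after their values were seen. *pcbd1*, which with dihydropteridine reductase renews the tetrahydrobiopterin used by phenylalanine hydroxylase, was at 83.7 ± 60.8 CPM in the WT pools and 367 ± 101 CPM in the cr*keap1a/b* pools (log2 fold change 2.63 ± 0.73, adjusted p = 0.0501). *sqor* and *ethe1* oxidize the hydrogen sulfide that arises from cysteine and homocysteine. *sqor* had 13, 3 and 2325 counts in the WT pools, against 6774, 7277 and 7236 in the cr*keap1a/b* pools (adjusted p = 0.280). *ethe1* had 119, 147 and 1 counts in the WT pools, against 1840, 1942 and 1531 in the cr*keap1a/b* pools (adjusted p = 0.533). These 3 were called higher in the letter a libraries, at adjusted p-values of 3.47e-05, 0.0396 and 3.03e-04. So was *qdpra*, a dihydropteridine reductase (log2 fold change 1.36, adjusted p = 5.35e-04), which overlapped with all libraries (0.83, adjusted p = 0.741). The 5 companions that were lower without overlap were *gpt* (595 ± 23.6 against 412 ± 128 CPM), *bcat1* (210 ± 24.8 against 89.5 ± 65.5 CPM), *pycr1b* (90.4 ± 17.4 against 41.0 ± 36.4 CPM), *odc1* (49.4 ± 34.0 against 6.81 ± 5.93 CPM) and *gcdha* (60.3 ± 20.0 against 16.5 ± 14.3 CPM). None of these 5 was called by limma-voom with all libraries or with letter a alone. *cdo1*, cysteine dioxygenase, overlapped with all libraries (log2 fold change −1.83, adjusted p = 0.540) and was called lower in the letter a libraries (adjusted p = 1.50e-06), at 286 ± 183 CPM in WT and 73.3 ± 50.6 CPM in the cr*keap1a/b* pools over all libraries.

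**Figure D5:**
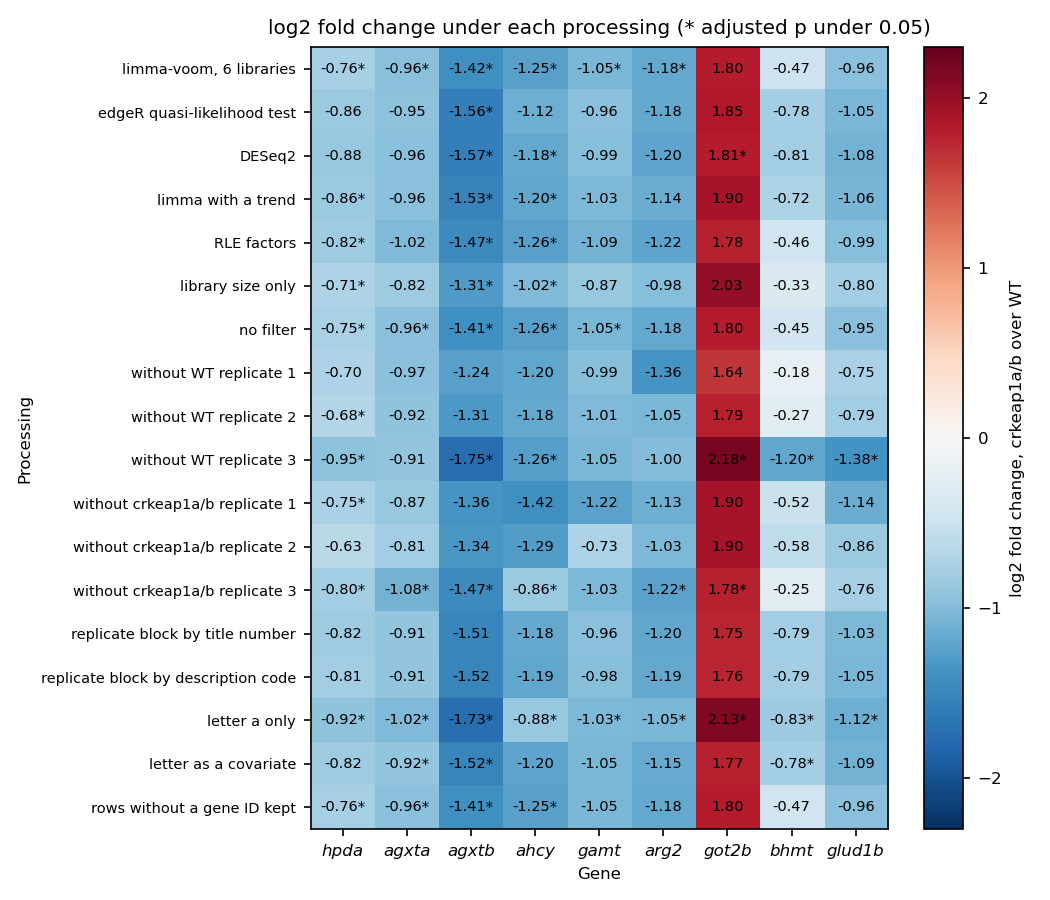
log2 fold change of crkeap1a/b over WT for 9 enzymes (columns) under each processing (rows), with a star at an adjusted p-value under 0.05. Every value keeps its sign, with agxtb from −1.75 to −1.24 and got2b from 1.64 to 2.18, whereas the stars come and go. Enzymes not shown, such as cth and tdo2a, changed sign between fits.

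The 6 called enzymes kept their sign in the 17 other fits. These fits share libraries, and the groups of the 6 did not overlap in scaled CPM, so the kept sign is not separate support. The log2 fold change ranged from −0.95 to −0.63 for *hpda*, −1.08 to −0.81 for *agxta*, −1.75 to −1.24 for *agxtb*, −1.42 to −0.86 for *ahcy*, −1.22 to −0.73 for *gamt* and −1.36 to −0.98 for *arg2*. Separation of the groups depended on scaling. In unscaled CPM, 10 enzymes had groups that did not overlap and were lower and 4 were higher (3.84% and 10.4% of all genes), and with RLE factors these were 14 and 3 (5.5% and 8.06%). *agxta*, *tdh*, *arg2* and *tdo2b* overlapped in unscaled CPM.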

How the data were processed

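Per the study's methods, QuantSeq 3′ libraries were sequenced with single-end reads, and the authors' processing used cutadapt 1.16 for trimming, STAR 2.7.5b for alignment to danRer11 (GRCz11) and featureCounts 1.6.3 for counting. The authors deposited raw counts per Entrez gene ID as whole numbers, and no molecular identifiers are mentioned. A read lies near the 3′ end of a transcript, so counts were not divided by gene length and levels were not compared between genes. Whether multi-mapped reads were split between paralogs is not given in the sources used here.

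The table has 6637 rows. The 135 rows without a gene ID hold 9.82% to 13.6% of the counts of a library and were left out of library sizes and tests. A RefSeq gene list of the assembly GRCz12tu, used only for names, gave symbols to 6425 of the 6502 IDs. All 6 sample columns matched a label, with 0 columns unmatched.

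The main test was limma-voom, the method of the study, run in R 4.3.3 with limma 3.58.1 and edgeR 4.0.16. After filterByExpr (minimum count 10), TMM scaling and voom weighting, the linear model held only the group. P-values were adjusted by Benjamini-Hochberg over 6386 genes, and a gene was called at an adjusted p-value under 0.05. CPM is TMM-scaled, with mean ± SD over pools, and SE is the moderated one. Counts of 3 were taken as the detection floor, for counting error only. Alternatives used edgeR's quasi-likelihood test, DESeq2 1.42.0, limma with a trend, other scaling and filters, left-out libraries, replicate blocks and the description letter. The functions were run on simulated counts, with a pass mark set only for limma-voom at a fixed level of variation. The simulated counts did not include the many zeros of the letter b libraries. They therefore do not show how the tests behave with such libraries.

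Members and gene lists were chosen with earlier results of these data known. Counts in every library are given for enzymes called, for enzymes whose groups did not overlap, for the 2 of each enzyme group with the largest summed counts, and for both members of an a and b paralog pair when either met one of these. Of other pathway genes, those called are named. Genes named outside these rules are marked.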

Additional observations from a re-analysis of the deposited data

How the results depend on the processing

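With 3 pools per group, 2 of them with many zeros, the count of enzymes called moved with the processing. The number called lower, 6 in limma-voom, was 1 in edgeR, 2 in DESeq2, 3 each in limma with a trend, with RLE factors, with library size only and with the letter as a covariate (*agxta*, *agxtb* and *bhmt* in the last), and 11 in the letter a libraries. Leaving out 1 library gave 0 to 5, with 0 without WT replicate 1 or cr*keap1a/b* replicate 2. The number called higher, 0 in limma-voom, was 1 in DESeq2 and in the letter a libraries, and 0 to 2 when 1 library was left out. Over all genes, 38 higher and 38 lower became 16 and 6 in edgeR and 103 and 46 in DESeq2. It became 9 and 27 with RLE factors, 7 and 10 with the letter as a covariate, and 24 and 29 with rows lacking a gene ID kept, an alternative chosen after seeing the data. The median log2 fold change of the enzymes was above 0 only without cr*keap1a/b* replicate 3 (0.11) and otherwise ran down to −0.81. Leaving out single libraries moved the median of all genes from −0.50 to 1.61. The cause of these shifts was not tested.

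The groups share replicate numbers in their titles and, in another arrangement, in their descriptions. Same-numbered samples correlated at 0.0099 to 0.0744 in their deviations by title and 0.0451 to 0.0744 by description. None reached 0.1, but samples with different numbers were not compared, so this check cannot exclude pairing. The main test did not take the numbers as pairs, and the labels do not say which pools share a clutch. The replicate 3 samples also share the letter b and many zeros. With a replicate block by title or by description, 0 enzymes were called by limma-voom, in either direction, with 14 and 15 at an unadjusted p-value under 0.05. Over all genes, 1 was then called higher and 2 lower by title, and 2 and 3 by description.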
